A study of Mus musculus with 36 samples.

Results

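The genes examined were 10 members of the endoplasmic reticulum (ER) stress and integrated stress response: Hspa5, Herpud1, Xbp1, Atf4, Ddit3, Trib3, Asns, Chac1, Sesn2 and Ppp1r15a. They were chosen by gene symbol from what is known of these pathways, and their values were read in all libraries of both expression tables. All 10 were present in both tables, among 15385 symbols in the microglial table, 14551 in the astrocyte table and 16690 in either. All 10 passed the filter on low values in both tables, Chac1 in microglia only through stimulated libraries.

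Primary microglia and astrocytes were grown from pooled brains of C57BL/6 mice aged 2 to 4 days, as mixed glia for 12 days. They were then separated with magnetic beads, microglia by CD11b. Astrocytes were taken from the fraction that CD11b selection left behind, by a further positive selection with an APC kit. Both cell types were treated for 4 h and their mRNA was sequenced. The study asked which transcriptional responses need the kinase activity of RIPK1. The stimulus named T/5z combined TNF and 5z-7, which blocks the kinase TAK1. The stimulus named T/S/Z combined TNF, a Smac mimetic and zVAD, which blocks caspases. Nec-1s, which blocks the kinase RIPK1, was given alone or together with a stimulus, and a final N in a name (T/5z/N, T/S/Z/N) marks its presence. The study's methods state that inhibitors, Nec-1s among them, were typically given before TNF. Below, adding Nec-1s to or after a stimulus names a comparison of groups and not an order of treatment. Microglia had 6 treatments with 4 libraries each: DMSO as the vehicle, Nec-1s, both stimuli, and both stimuli plus Nec-1s. Astrocytes had 4 treatments with 3 libraries each, without the arms that contain 5z-7. T/5z is used as a stimulus for RIPK1-dependent apoptosis and T/S/Z as a stimulus for necroptosis. No group received TNF, a Smac mimetic, zVAD or 5z-7 alone, so effects of the single agents cannot be told apart.

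The unfolded protein response begins at 3 sensors in the ER membrane, PERK, IRE1 and ATF6. PERK is also one of the kinases of the integrated stress response: by phosphorylating the translation factor eIF2 it slows protein synthesis while it favours translation of the transcription factor ATF4. ATF4 raises genes of amino acid supply and, with its target CHOP (encoded by Ddit3), genes tied to cell death, whereas IRE1 splices the Xbp1 mRNA and ATF6 and spliced XBP1 raise chaperones. Much of this pathway acts on translation, splicing and phosphorylation, which mRNA levels of whole genes do not record.

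Response element letters in the promoters are shown because they are the textbook route by which ATF6, XBP1 and ATF4 reach these genes. RefSeq promoter windows of build GRCm38.p6, with 250 bases before and 50 after the annotated start, were found for 10 of 10 members, 1 window each. On both strands, the ER stress element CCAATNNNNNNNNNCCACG was in 0.119% of all 32851 windows, the ATF4 element core TGATGNAA in 3.97% and the XBP1/ATF6 core TGACGTG in 2.01%. These letters were found in 5 members and in none of the windows of the other 5. Matches upstream of the start are printed 5′ to 3′ on the gene's strand, with the matched letters in capitals.
Hspa5, ER stress element, chr2:34772020-34772049, plus strand: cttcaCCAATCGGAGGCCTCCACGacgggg
Hspa5, XBP1/ATF6 core, chr2:34771913-34771959, plus strand: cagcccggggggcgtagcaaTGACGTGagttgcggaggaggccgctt
Herpud1, ATF4 element core in reverse, chr8:94386297-94386344, plus strand: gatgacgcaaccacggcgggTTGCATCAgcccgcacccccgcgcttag
Chac1, ATF4 element core in reverse, chr2:119351029-119351076, plus strand: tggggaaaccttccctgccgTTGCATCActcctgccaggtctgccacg
Asns, ATF4 element core, chr6:7693214-7693243, minus strand: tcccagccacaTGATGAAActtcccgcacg
Trib3 had the ATF4 element core in reverse after its start, at positions 15 to 22. The matches of Asns and of the ER stress element of Hspa5 lie upstream of the RefSeq start and inside the longer gene span of the deposited annotation. A match is a description of letters and was not tested as a binding site.

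Values are deposited log2(FPKM + 1), where FPKM is fragments per kilobase of exon per 1e+06 fragments, and changes are differences of group means on that scale. A gene was called when its fold change exceeded 1.5 and its adjusted p (limma, Benjamini-Hochberg over all genes tested) was under 0.05, and only called genes are said to rise or fall. Each figure after ± is an SD unless an SE is named. The study describes its replicates as individual samples or as cells from different litters, and the labels do not say which libraries share a culture. The p-values therefore measure the spread left between these libraries once replicate number is blocked. In the microglial table each gene's replicate means were already equal, so SDs and p-values there hold only the spread which that left. In bulk RNA, fewer cells of a type and less RNA per cell cannot be told apart.

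All 12 microglial markers, among them Cx3cr1, P2ry12 and Csf1r, passed the filter in the microglial table, where they summed to 10258 to 12466 FPKM per library, against 68.6 to 123 FPKM in the astrocyte table. All 12 astrocyte markers, among them Gfap, Aqp4 and Slc1a3, passed it in the astrocyte table and summed to 3267 to 3881 FPKM there. In microglia, 8 of the 12 astrocyte markers passed, and their sum was 178 to 238 FPKM with DMSO, 85.0 to 113 with T/5z, 124 to 133 with T/5z/N, 117 to 137 with T/S/Z and 137 to 154 with T/S/Z/N. Although the sum was lower, single astrocyte markers moved the other way: of the 8, 5 rose and 1 fell with T/5z (median change 0.75), and 5 rose and 1 fell with T/S/Z (median 0.76), where 24.4% and 29.6% of all genes tested were called. Adding Nec-1s lowered 5 of the 8 in each case and raised 1 after T/5z, with medians of -0.67 and -0.97, where 7.16% and 12.1% were called. In microglia given T/5z, 4 of 4 fibroblast and mural markers tested rose, and the list of 7 summed to 12.9 to 23.2 FPKM, against 6.76 to 8.75 with DMSO and 5.61 to 9.09 with T/S/Z. In astrocytes, the microglial markers summed to 114 to 117 FPKM with the vehicle 68.6 to 70.5 with T/S/Z and 98.1 to 105 with T/S/Z/N. The 7 fibroblast and mural markers summed to 918 to 1109, 591 to 685 and 796 to 838 FPKM in these groups, and 3 endothelial markers to 17.6 to 19.5, 6.46 to 7.18 and 12.4 to 15.1 FPKM. With T/S/Z, 8 of 11 microglial and 5 of 7 fibroblast and mural markers tested fell, where 15.4% of all genes were called, and on adding Nec-1s 3 of the 11 and 5 of the 7 rose, where 3.1% were called. In microglia given T/S/Z, 2 of 3 endothelial markers tested fell and 2 of 3 oligodendrocyte lineage markers rose, where 29.6% of all genes were called. The endothelial list summed to 7.64 to 9.47 FPKM with DMSO and 3.41 to 3.97 with T/S/Z. In astrocytes given T/S/Z, 3 of 12 astrocyte and 2 of 7 oligodendrocyte lineage markers fell and 0 rose. The latter list summed to 100 to 117 FPKM with the vehicle and 60.3 to 86.9 with T/S/Z. The part of these other cell types in the values given here was not tested. The tables were normalized separately, so no test compared levels between microglia and astrocytes. The sample labels name a different sequencing provider for each cell type and the study's methods name one for both, so whether cell type and provider can be told apart is not settled.

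In microglia given DMSO, the per-length levels of the members spanned a wide range. Hspa5, which encodes the chaperone BiP, was highest at 192 FPKM, followed by Atf4 at 115, Ddit3 at 81.4 and Xbp1 at 44.4 FPKM (each from the mean log2 value of 4 libraries). Sesn2 at 10.6, Asns at 10.3 and Ppp1r15a at 10.0 FPKM had overlapping libraries, as had Herpud1 at 6.83 and Trib3 at 6.42 FPKM, and Chac1 was lowest at 0.767 FPKM. In astrocytes given the vehicle, Hspa5 was at 469, Atf4 at 87.0, Xbp1 at 48.3, Ppp1r15a at 24.4, Asns at 23.0, Ddit3 at 20.9, Herpud1 at 17.6, Sesn2 at 15.6, Chac1 at 2.22 and Trib3 at 1.94 FPKM. Exon lengths differed between the 2 deposited annotations for all members but Chac1 and Sesn2, such as Ddit3 with 890 bases in the microglial and 1713 in the astrocyte table. Of those that differed, Ppp1r15a did so least, with 2936 and 2937 bases.

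T/5z raised 3 and lowered 2 of the 10 members in microglia, where 24.4% of all 10524 genes tested were called. Herpud1, Ppp1r15a and Hspa5 rose, and Trib3 and Ddit3 fell. The median change of the members was 0.00, against -0.06 over all genes tested. T/S/Z raised 5 members and lowered none, where 29.6% of all genes tested were called: Ppp1r15a, Herpud1, Chac1, Hspa5 and Atf4. The median change of the members was 0.77, against -0.08 over all genes. Adding Nec-1s to T/5z raised Trib3, Ddit3, Sesn2 and Chac1, 4 of 10 members, where 7.16% of all genes tested were called. Adding Nec-1s to T/S/Z raised Trib3 and Sesn2 and lowered Ppp1r15a, 3 of 10 members, where 12.1% of all genes were called. With 5 in place of 1 added before the log, 15 of the 37 member calls made over all comparisons were lost, all of them of Trib3, Chac1, Sesn2, Asns or Ppp1r15a, and 22 remained.

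**Figure D1:**
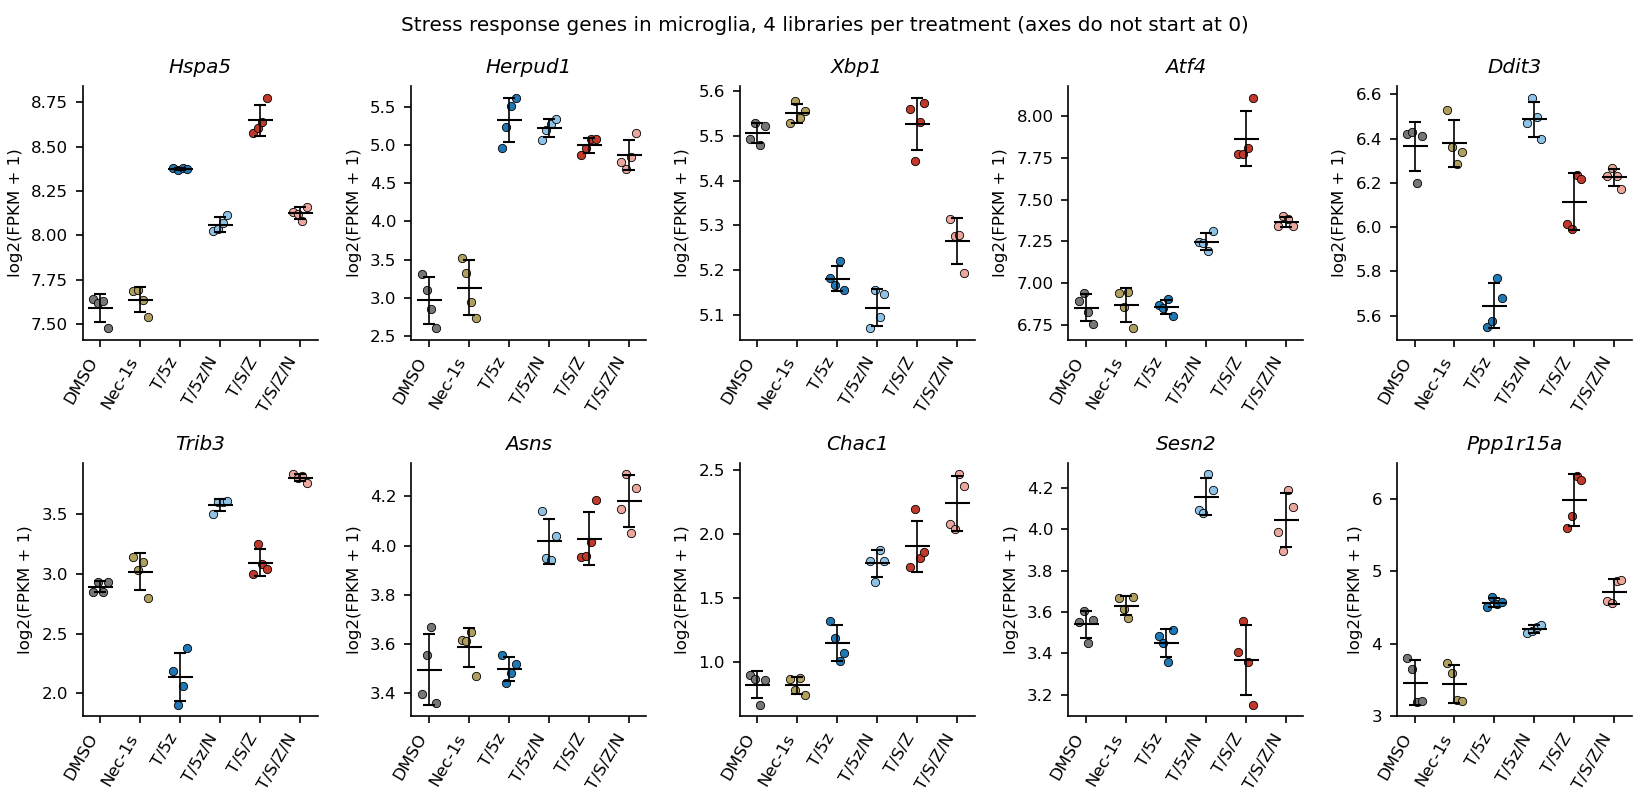
Values of the 10 genes in 24 microglial libraries, 1 panel per gene, with log2(FPKM + 1) on the vertical axis and treatment on the horizontal axis. Points are libraries, bars the mean and SD of 4, and the axes do not start at 0. Herpud1 lies between 4.69 and 5.61 in all stimulated libraries and at or below 3.52 with DMSO or Nec-1s, and Trib3 is lowest with T/5z.

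Herpud1 encodes an ER membrane protein of the machinery that sends misfolded proteins to the proteasome. Its 4 DMSO libraries held 3.31, 3.10, 2.86 and 2.60, and its 4 T/5z libraries 4.96, 5.23, 5.51 and 5.61. After T/S/Z it was at 4.87, 4.96, 5.07 and 5.08. Every stimulated library lay above every DMSO library. The rise was 2.36 (SE 0.20, limma adjusted p 6.34e-05) with T/5z and 2.02 (SE 0.14, adjusted p 8.70e-06) with T/S/Z. With Nec-1s added, the libraries were at 5.06, 5.20, 5.28 and 5.33 after T/5z and at 4.78, 4.69, 4.84 and 5.15 after T/S/Z. The groups with and without Nec-1s overlapped, and the changes on adding it were -0.11 (SE 0.07, limma adjusted p 0.202) and -0.13 (SE 0.06, adjusted p 0.114). Against DMSO, Herpud1 was raised by 2.25 (SE 0.14) with T/5z/N and by 1.90 (SE 0.16) with T/S/Z/N.

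Hspa5, the main ER luminal chaperone and a classical target of ATF6, was at 7.64, 7.62, 7.63 and 7.48 in the DMSO libraries. With T/5z the 4 libraries held 8.38, 8.37, 8.38 and 8.37, and with T/S/Z they held 8.58, 8.60, 8.64 and 8.78. All stimulated libraries lay above all DMSO libraries, and the T/S/Z libraries lay above the T/5z libraries. The rises were 0.78 (SE 0.05, limma adjusted p 1.18e-05) and 1.06 (SE 0.07, adjusted p 5.54e-06). After quantile normalization the change with T/5z was 0.54, under the fold minimum. With Nec-1s added, Hspa5 was at 8.02 to 8.11 after T/5z and 8.08 to 8.16 after T/S/Z, between the DMSO and the stimulated libraries in both cases. The changes of -0.31 (SE 0.04, limma adjusted p 0.000423) and -0.52 (SE 0.05, adjusted p 0.000148) passed the threshold on p and not the one on fold. The second was -0.60 (adjusted p 7.89e-05) with libraries centred on their medians, over the fold minimum, and -0.27 after quantile normalization.

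Xbp1, whose spliced mRNA encodes a transcription factor of the unfolded protein response, was not called in any comparison in either cell type. Its microglial libraries held 5.48 to 5.53 with DMSO, 5.16 to 5.22 with T/5z, 5.07 to 5.15 with T/5z/N, 5.44 to 5.57 with T/S/Z and 5.19 to 5.31 with T/S/Z/N. The T/5z libraries lay below the DMSO libraries and the T/S/Z libraries overlapped them. The change with T/5z was -0.32 (SE 0.05, limma adjusted p 0.000697), under the fold minimum. The tables give 1 value per gene, so splicing of Xbp1 was not measured here.

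Atf4, the transcription factor at the centre of the integrated stress response, did not move with T/5z beyond the spread of its libraries. The DMSO libraries held 6.89, 6.94, 6.83 and 6.76, and the T/5z libraries 6.87, 6.85, 6.90 and 6.80. The T/S/Z libraries held 7.77, 7.77, 7.81 and 8.11. The T/5z group lay within the range of DMSO, and the T/S/Z group above it. The change was 0.00 (SE 0.05, limma adjusted p 0.980) with T/5z, and the rise was 1.01 (SE 0.09, adjusted p 2.73e-05) with T/S/Z. After quantile normalization the change with T/S/Z was 0.58, at a fold just under the minimum. Nec-1s brought the values towards each other: the libraries held 7.19 to 7.32 with T/5z/N and 7.34 to 7.40 with T/S/Z/N. Adding it changed Atf4 by 0.39 (SE 0.05) after T/5z and by -0.50 (SE 0.07) after T/S/Z, both under the fold minimum.

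Ddit3 encodes CHOP, a transcription factor induced by ATF4 and linked to cell death under ER stress. Its libraries held 6.42, 6.43, 6.20 and 6.41 with DMSO, 5.55, 5.58, 5.77 and 5.68 with T/5z and 6.47, 6.59, 6.50 and 6.40 with T/5z/N. The T/5z libraries lay below all others, and the T/5z/N libraries overlapped those of DMSO. Ddit3 fell by 0.72 (SE 0.08, limma adjusted p 0.000217) with T/5z and rose by 0.84 (SE 0.06, adjusted p 1.67e-05) when Nec-1s was added. In the T/S/Z group it was at 6.01, 5.99, 6.23 and 6.22, a change of -0.25 (SE 0.08, limma adjusted p 0.0254) that did not reach the fold minimum. The T/S/Z/N libraries, at 6.17 to 6.27, overlapped the T/S/Z libraries. GENCODE M21, whose exons of Ddit3 have the 1713 bases given in the astrocyte table, shares 68 of them with Mars on the opposite strand. The microglial table gives Ddit3 890 bases, for which the overlap was not determined, and its libraries are not stated to keep strand. Mars was at 4.28 to 4.78 in the microglial libraries, and how far its reads enter the value of Ddit3 was not tested.

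Trib3, a pseudokinase induced by ATF4 and CHOP, had the largest difference of the 10 members between T/5z/N and T/5z. Its DMSO libraries held 2.85, 2.93, 2.85 and 2.93, its T/5z libraries 2.19, 1.90, 2.07 and 2.38, and its T/5z/N libraries 3.50, 3.60, 3.60 and 3.61. These 3 groups did not overlap, with T/5z lowest and T/5z/N highest. Trib3 fell by 0.76 (SE 0.09, limma adjusted p 0.000284) with T/5z and rose by 1.44 (SE 0.08, adjusted p 7.14e-06) on adding Nec-1s. With T/5z/N it was 0.69 (SE 0.06) above DMSO. The T/S/Z libraries held 3.00, 3.25, 3.08 and 3.04, and with T/S/Z/N they held 3.83, 3.80, 3.82 and 3.76. The T/S/Z/N libraries were the highest of all 6 treatments. The change with T/S/Z was 0.20 (SE 0.07), under the fold minimum. Trib3 was higher by 0.71 (SE 0.06, limma adjusted p 6.60e-05) with T/S/Z/N than with T/S/Z, and 0.91 (SE 0.06) above DMSO.

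Sesn2, which encodes Sestrin 2, a stress-induced protein that restrains mTORC1, moved when Nec-1s was present with a stimulus. Its libraries held 3.55, 3.60, 3.45 and 3.56 with DMSO, 3.48, 3.45, 3.36 and 3.51 with T/5z and 3.41, 3.56, 3.36 and 3.15 with T/S/Z. These 3 groups overlapped. With T/5z/N they held 4.09, 4.08, 4.27 and 4.19, and with T/S/Z/N 3.99, 3.90, 4.19 and 4.11. All 8 of these libraries lay above all DMSO and stimulated ones. Adding Nec-1s raised Sesn2 by 0.71 (SE 0.06, limma adjusted p 5.31e-05) after T/5z and by 0.68 (SE 0.10, adjusted p 0.000762) after T/S/Z. Without replicate 4 the change after T/S/Z was 0.58, at a fold just under the minimum. Against DMSO the rise was 0.62 (SE 0.07) with T/5z/N, which was 0.55 and under the fold minimum without replicate 3, and the change was 0.50 (SE 0.08) with T/S/Z/N.

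Chac1 encodes an enzyme that degrades glutathione and is a sensitive ATF4 target, here at the lowest level of the 10 genes in microglia. Its libraries held 0.89, 0.87, 0.66 and 0.86 with DMSO, 1.32, 1.19, 1.01 and 1.07 with T/5z and 1.75, 2.19, 1.81 and 1.86 with T/S/Z. The 3 groups did not overlap, with DMSO lowest. The change with T/5z was 0.33 (SE 0.09, limma adjusted p 0.0157), under the fold minimum, and the rise with T/S/Z was 1.08 (SE 0.10, adjusted p 4.47e-05). All DMSO and Nec-1s libraries lay under the filter's log2 value of 1, so Chac1 was tested because its stimulated libraries were higher, and its rises over DMSO are not independent of the filter. Without any filter the adjusted p of the rise with T/S/Z was 0.000202. With Nec-1s added, Chac1 was at 1.79, 1.63, 1.88 and 1.79 with T/5z/N and 2.08, 2.04, 2.47 and 2.37 with T/S/Z/N. The T/5z/N libraries lay above the T/5z libraries, and the T/S/Z/N libraries overlapped those with T/S/Z. Nec-1s raised it by 0.62 (SE 0.10, limma adjusted p 0.00113) after T/5z, and the change after T/S/Z was 0.34 (SE 0.13, adjusted p 0.0514). The first of these was 0.58 with libraries centred on their medians and 0.54 without replicate 3, at folds under the minimum. Chac1 was 0.95 (SE 0.10) above DMSO with T/5z/N and 1.42 (SE 0.12) above it with T/S/Z/N.

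Asns encodes asparagine synthetase, an ATF4 target of amino acid supply. Its libraries held 3.36 to 3.67 with DMSO, 3.44 to 3.56 with T/5z and 3.95 to 4.18 with T/S/Z. After T/5z/N they held 3.94 to 4.14 and after T/S/Z/N 4.05 to 4.29. The T/5z group overlapped DMSO, and the other 3 stimulated groups lay above it and overlapped among themselves. The rise with T/S/Z/N was 0.68 (SE 0.09, limma adjusted p 0.000485). The change with T/S/Z was 0.53 (SE 0.09, adjusted p 0.000862), under the fold minimum, and was 0.63 with libraries centred on their medians and 0.59 without replicate 3, over the minimum. With T/5z/N the change was 0.52 (SE 0.09), and 0.61 without replicate 3.

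Ppp1r15a encodes GADD34, the phosphatase subunit that reverses phosphorylation of eIF2. The DMSO libraries held 3.80, 3.64, 3.20 and 3.20, the T/5z libraries 4.51, 4.65, 4.54 and 4.57 and the T/S/Z libraries 5.60, 5.76, 6.33 and 6.26. The 3 groups did not overlap, and T/S/Z was highest. The rises were 1.11 (SE 0.11, limma adjusted p 0.000156) with T/5z and 2.53 (SE 0.22, adjusted p 2.97e-05) with T/S/Z. With Nec-1s the libraries were at 4.14, 4.18, 4.23 and 4.26 after T/5z and at 4.59, 4.56, 4.86 and 4.88 after T/S/Z, below the stimulus alone and above DMSO in both cases. Nec-1s lowered Ppp1r15a after T/S/Z, where it fell by 1.27 (SE 0.07, limma adjusted p 1.30e-05). After T/5z the change was -0.37 (SE 0.05, adjusted p 0.000412), under the fold minimum. It was raised over DMSO by 0.74 (SE 0.12) with T/5z/N and by 1.26 (SE 0.16) with T/S/Z/N. The first of these rises had an adjusted p of 0.0769 when limma's shared variance was replaced by each gene's own.

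Against DMSO, the stimuli with Nec-1s raised 5 members each and lowered none. With T/5z/N these were Herpud1, Chac1, Ppp1r15a, Trib3 and Sesn2, where 12.8% of all genes tested were called. For T/S/Z/N they were Herpud1, Chac1, Ppp1r15a, Trib3 and Asns, where 14.1% were called. The 4 comparisons with DMSO share its libraries, so their calls are not independent of each other. A change counted as RIPK1-dependent when the call against DMSO was met by a call in the opposite direction on adding Nec-1s. Both calls use the libraries of the stimulus, which favours opposite signs. The rule was met by the falls of Ddit3 and Trib3 with T/5z, where 6.08% of all genes tested met it, and by the rise of Ppp1r15a with T/S/Z, where 9.28% did. A change that was called in the same direction with Nec-1s present was held by Herpud1 and Ppp1r15a with T/5z and by Herpud1, Ppp1r15a and Chac1 with T/S/Z, where 11.6% and 11.5% of all genes did so. Ppp1r15a after T/S/Z met both. In astrocytes given T/S/Z, 0 of 10 members met the first rule and 0 the second, where 2.54% and 7.57% of all genes did.

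Without a stimulus, Nec-1s called 0 of 10 members in microglia, with limma calling 0% of all genes tested, and 892 of 10524 at an unadjusted p under 0.05. The member changes ran from -0.02 (Ppp1r15a) to 0.16 (Herpud1, SE 0.05, unadjusted p 0.00990, adjusted p 0.526). The Trib3, Sesn2, Ddit3 and Chac1 libraries with Nec-1s alone overlapped those with DMSO.

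The stimuli were also compared directly. T/S/Z was above T/5z for 4 members, Ppp1r15a (1.42, SE 0.13), Atf4 (1.01, SE 0.08), Trib3 (0.96, SE 0.11) and Chac1 (0.76, SE 0.11), where 9.83% of all genes tested were called by limma. For Herpud1 the difference was -0.33 (SE 0.08), under the fold minimum. With Nec-1s present in both arms, 0 of 10 members were called, where 3.38% of all genes tested were called. The differences of T/S/Z/N from T/5z/N then ran from -0.35 (Herpud1, SE 0.06) to 0.52 (Ppp1r15a, SE 0.05).

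The response to Nec-1s in T/S/Z cultures was compared with that in T/5z cultures as a difference of differences over the 4 stimulated groups. It was called for 4 members, where 6.47% of all genes tested were called, and in each the effect after T/S/Z was lower than after T/5z. The difference was -0.90 (SE 0.14, limma adjusted p 0.000449) for Ppp1r15a, which was lowered more after T/S/Z. It was -0.89 (SE 0.09, adjusted p 8.14e-06) for Atf4, whose change had opposite signs after the stimuli. It was -0.73 (SE 0.09, adjusted p 3.54e-05) for Ddit3 and -0.73 (SE 0.12, adjusted p 0.000596) for Trib3. Of these, Trib3 was raised by Nec-1s after both stimuli and by more after T/5z, whereas Ddit3 was raised after T/5z and not called after T/S/Z. For Asns (-0.37, SE 0.09, limma adjusted p 0.00674), Hspa5 (-0.21, SE 0.06, adjusted p 0.0141) and Xbp1 (-0.20, SE 0.06, adjusted p 0.0273) it passed the threshold on p and not the one on fold. For Chac1 it was -0.29 (SE 0.17, adjusted p 0.245). For Sesn2 the difference was -0.03 (SE 0.12) and for Herpud1 -0.02 (SE 0.10), each smaller than its SE.

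**Figure D2:**
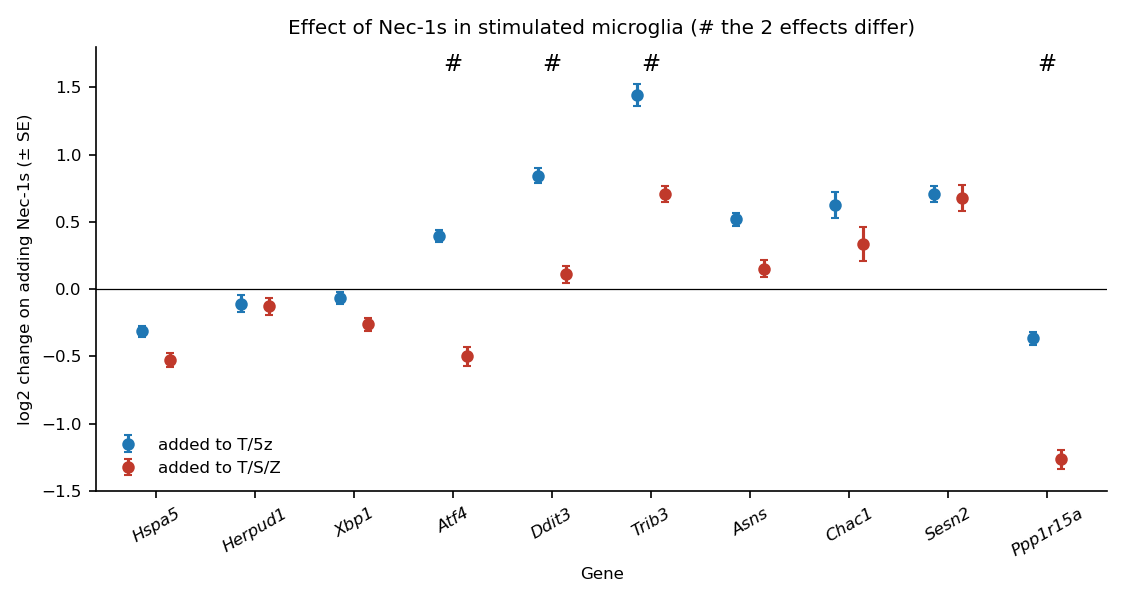
Change of each gene when Nec-1s was added to T/5z (blue) or to T/S/Z (red) in microglia, as log2 differences with SE from limma, 4 libraries per group. A # marks the 4 genes whose 2 effects differed: for Trib3 they were 1.44 and 0.71, for Ppp1r15a -0.37 and -1.27.

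In astrocytes, T/S/Z raised 2 of 10 members, Chac1 and Atf4, where 15.4% of all 13842 genes tested were called. The median change of the members was 0.13, against -0.11 over all genes. Atf4 was at 6.54, 6.42 and 6.41 with the vehicle and at 7.05, 7.37 and 6.96 with T/S/Z, without overlap. It rose by 0.66 (SE 0.10, limma adjusted p 0.00226). Without replicate 2 the change was 0.52, under the fold minimum. Chac1 was at 1.83, 1.71 and 1.52 with the vehicle and at 3.00, 2.16 and 1.98 with T/S/Z, where replicate 1 was far above the other two. It rose by 0.69 (SE 0.16, adjusted p 0.0135). Without replicate 1 the change was 0.45, with an adjusted p of 0.0783, and without the replicate number as a block the adjusted p was 0.0565. With each gene's own variance in place of limma's shared one, neither gene was called.

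The other members moved less in astrocytes. Herpud1 was at 4.32, 4.13 and 4.20 with the vehicle and at 4.78, 4.65 and 4.44 with T/S/Z, a change of 0.41 (SE 0.09, limma adjusted p 0.00952) under the fold minimum, without overlap. Ppp1r15a changed by 0.30 (SE 0.08, adjusted p 0.0226), Hspa5 by 0.11 (SE 0.08, adjusted p 0.320) and Ddit3 by 0.05 (SE 0.08, adjusted p 0.637). Trib3 was at 1.44 to 1.71 with the vehicle and 0.989 to 1.502 with T/S/Z, a change of -0.28 (SE 0.13, adjusted p 0.115). Sesn2 was at 3.41, 3.84 and 4.30 in the T/S/Z libraries, the widest spread of the members there after Chac1.

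Adding Nec-1s to T/S/Z in astrocytes called 0 of 10 members, where 3.1% of all genes tested were called. The largest change was that of Ppp1r15a, from 5.07, 5.08 and 4.75 to 4.40, 4.46 and 4.45, a change of -0.53 (SE 0.10, limma adjusted p 0.0275) under the fold minimum, without overlap. Without replicate 3 it was -0.64, and Ppp1r15a was then called. At an unadjusted p under 0.05, Ppp1r15a, Atf4 (-0.23) and Hspa5 (0.21) passed, with 4134 of 13842 genes. For T/S/Z/N against the vehicle, 0 of 10 members were called, where 9.08% of all genes were called. The changes were 0.47 (SE 0.08) for Herpud1, 0.44 (SE 0.07) for Atf4, 0.32 (SE 0.06) for Hspa5 and 0.22 (SE 0.06) for Xbp1, each with an adjusted p under 0.05 and a fold under 1.5. Hspa5 libraries with T/S/Z/N, at 9.22, 9.20 and 9.17, lay above all others in astrocytes. With Nec-1s alone, 0 of 10 members were called, where limma called 0.0144% of all genes tested, 2 genes, with 790 at an unadjusted p under 0.05, and the member changes ran from -0.15 (Ddit3) to 0.18 (Atf4).

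**Figure D3:**
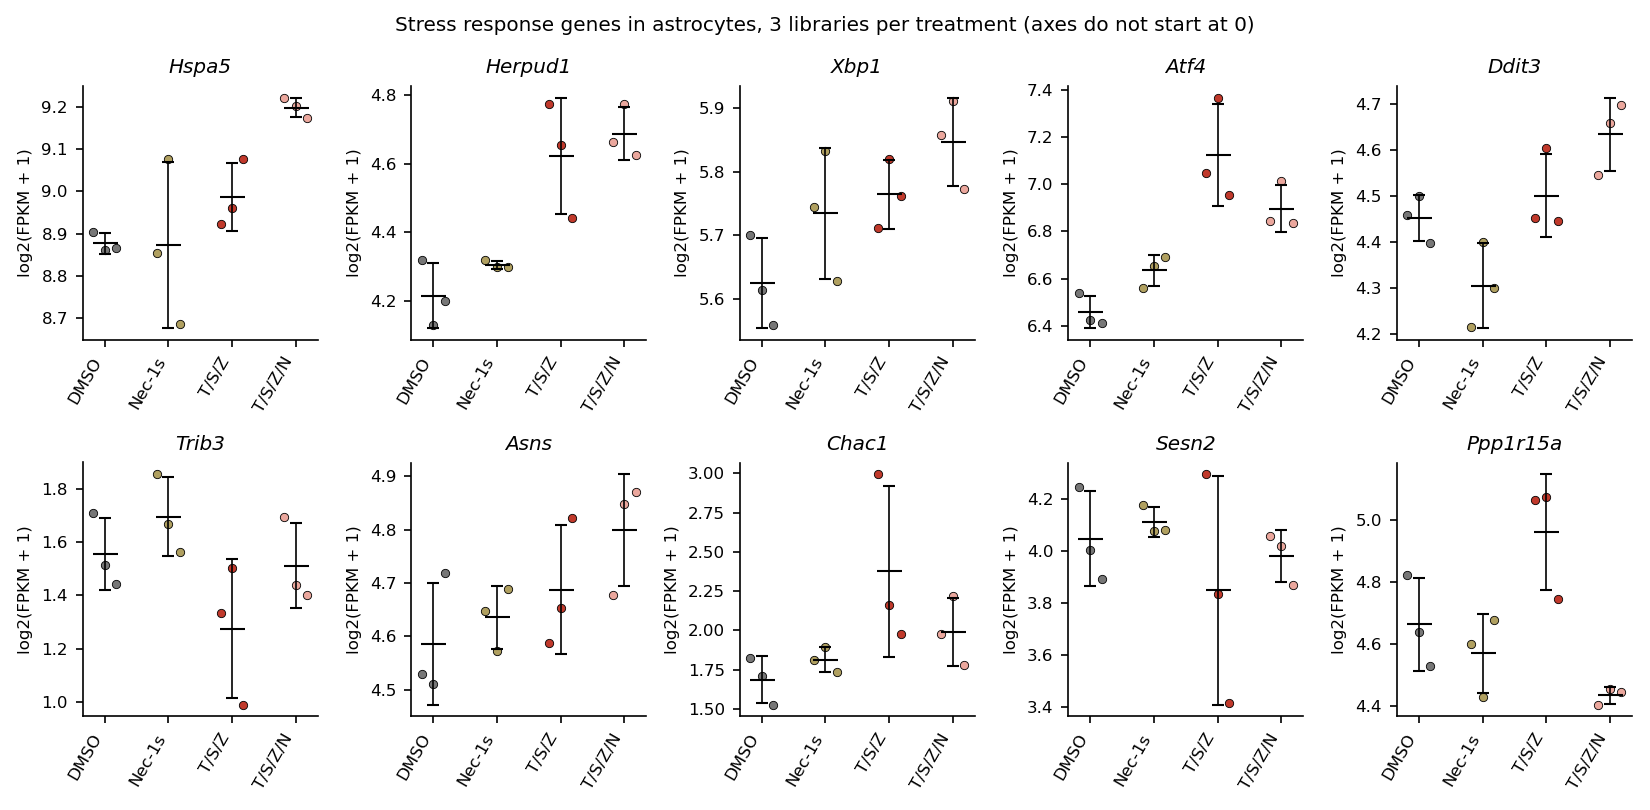
Values of the 10 genes in 12 astrocyte libraries, 1 panel per gene, with log2(FPKM + 1) on the vertical axis and treatment on the horizontal axis. Points are libraries, bars the mean and SD of 3, and the axes do not start at 0. Atf4 lies at 6.96 to 7.37 with T/S/Z against 6.41 to 6.54 with the vehicle, and the 3.00 of Chac1 in replicate 1 of T/S/Z stands apart.

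Microglia and astrocytes given T/S/Z can be set side by side, each against its own vehicle. Ppp1r15a changed by 2.53 in microglia and by 0.30 in astrocytes, Herpud1 by 2.02 and 0.41, Hspa5 by 1.06 and 0.11, Chac1 by 1.08 and 0.69, and Atf4 by 1.01 and 0.66. The difference between the cell types was not tested, because the tables were normalized separately.

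**Figure D4:**
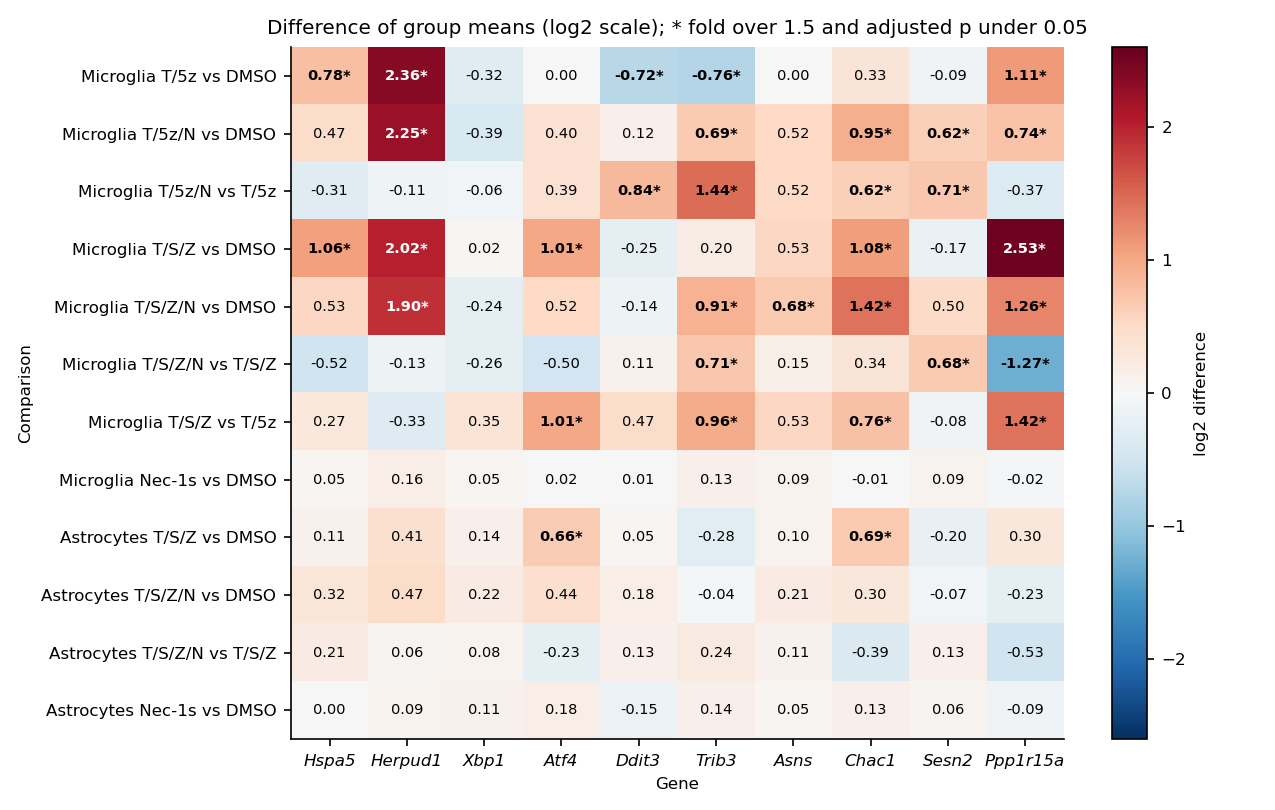
Difference of group means on the log2 scale for each of the 10 genes (columns) in 12 comparisons (rows), red for higher and blue for lower in the first-named group. An asterisk marks a fold over 1.5 with an adjusted p under 0.05. Herpud1 is at 1.90 to 2.36 in all 4 comparisons of stimulated microglia with DMSO, and Xbp1 bears no mark in any row.

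The other genes of the pathway were read from 5 lists, whose counts are set beside the share of all genes tested that was called in the same comparison. Among 22 ER chaperones and folding enzymes other than Hspa5, 0 rose in any comparison. With T/5z 0 of 22 fell and with T/S/Z 1 fell, Cnpy2 (-0.61, SE 0.07), with medians of -0.03 and -0.04, while Hspa5 rose in both and 24.4% and 29.6% of all genes were called. Of 20 aminoacyl-tRNA synthetases, many of them ATF4 targets, 0 were called in any microglial comparison, with medians of 0.01 with T/5z, 0.03 with T/S/Z and 0.22 on adding Nec-1s to T/5z, against 0.04 over all genes in the last of these. In astrocytes given T/S/Z, 1 of 20 rose, Kars (0.62, SE 0.07), where 15.4% of all genes were called.

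Among 38 partners and further targets of ATF4 and CHOP, 28 were tested in microglia, 9 rose and 6 fell with T/5z, and 12 rose and 4 fell with T/S/Z. The called share of the 28 was 53.6% and 57.1%, against 24.4% and 29.6% of all genes tested. With T/5z the largest rises were those of Jdp2 (3.30, SE 0.21), a bZIP repressor, and Slc7a11 (3.24, SE 0.09), the cystine importer subunit. The largest falls were those of Pck2 (-1.88, SE 0.11), the mitochondrial PEPCK, and Cebpg (-0.93, SE 0.05), a dimer partner of ATF4. In the T/S/Z comparison the leading rises were Gdf15 (5.00, SE 0.12), a stress cytokine, and Jdp2 (4.33, SE 0.20), and the leading falls Pck2 (-1.86, SE 0.11) and Bbc3 (-1.63, SE 0.09), which encodes the BH3 protein PUMA. Members of this list thus moved in both directions.

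When Nec-1s was added, 4 of the 28 rose and 3 fell after T/5z, and 3 rose and 6 fell after T/S/Z, where 7.16% and 12.1% of all genes were called. After T/5z, Pck2 (1.31, SE 0.05) and Bbc3 (1.01, SE 0.09) rose, and Jdp2 (-1.41, SE 0.07) and Slc7a11 (-1.19, SE 0.07) fell. After T/S/Z, Bbc3 (1.17, SE 0.08) and Pck2 (0.94, SE 0.06) rose, and Gdf15 (-4.08, SE 0.09) and Atf3 (-3.35, SE 0.15), a bZIP factor induced by ATF4 and by other stress signals, fell. The difference between the 2 effects of Nec-1s was called for 3 of the 28, where 6.47% of all genes were called: Atf3 (-3.71, SE 0.22), Gdf15 (-3.64, SE 0.15) and Cdkn1a (0.85, SE 0.13), the cell cycle inhibitor p21. In astrocytes given T/S/Z, 4 of the 37 tested rose and 0 fell (10.8%, against 15.4% of all genes), led by Atf3 (1.85, SE 0.08) and Nupr1 (1.40, SE 0.10), a stress-induced chromatin protein, and on adding Nec-1s 1 rose, Slc7a11 (0.91, SE 0.09), where 3.1% of all genes were called.

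Of 20 stress sensors and parts of the eIF2 machinery, 1 rose and 3 fell with T/5z and 3 rose and 4 fell with T/S/Z in microglia. The called share, 20% and 35%, was near that of all genes tested, 24.4% and 29.6%. Eif2ak3, which encodes PERK, fell by 1.03 (SE 0.06) with T/5z and by 1.45 (SE 0.07) with T/S/Z. Adding Nec-1s after T/S/Z raised it by 0.60 (SE 0.07), the only gene of the list called there, where 12.1% of all genes were called. Nck1, an adaptor that binds the eIF2 complex, rose by 2.03 (SE 0.09) and 1.73 (SE 0.09), and Eif2s1, the subunit of eIF2 that is phosphorylated, rose by 0.81 (SE 0.07) with T/S/Z. Eif2ak2, the kinase PKR, fell by 0.68 (SE 0.08) with T/S/Z, and Eif2a, a translation initiation factor distinct from eIF2, fell by 0.67 (SE 0.05) with T/5z. Adding Nec-1s after T/5z lowered Nck1 by 0.72 (SE 0.04), where 7.16% of all genes were called. Against DMSO, Nck1 alone of the 20 was called with T/5z/N (1.31, SE 0.08), where 12.8% of all genes were called. With T/S/Z/N, Nck1 rose (1.23, SE 0.10) and Eif2ak3 fell (-0.85, SE 0.07) against DMSO, where 14.1% of all genes were called. In astrocytes given T/S/Z, 1 of 20 was called against 15.4% of all genes: Ern1, which encodes IRE1 and rose by 0.62 (SE 0.10).

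Among 34 genes of ER-associated degradation and translocation, 32 were tested in microglia, 3 rose and 1 fell with T/5z, and 6 rose and 1 fell with T/S/Z. The called share of the 32 was 12.5% and 21.9%, below the 24.4% and 29.6% of all genes tested. Nploc4, a cofactor of the p97 segregase, rose by 0.78 (SE 0.05) and 0.73 (SE 0.05), and Edem3, a mannosidase of glycoprotein degradation, fell by 0.62 (SE 0.05) and 0.65 (SE 0.06). Sec61g, a translocon subunit, rose by 0.72 (SE 0.16) with T/5z, and Sec23b, of the COPII coat, by 0.66 (SE 0.05) with T/S/Z. These changes were smaller than those of Herpud1. Adding Nec-1s after T/S/Z lowered Selenok, a selenoprotein of the ER membrane, by 0.68 (SE 0.07), the only one of 32 called there against 12.1% of all genes. With T/S/Z/N, 2 of 32 were called against 14.1% of all genes: Srp54a of the signal recognition particle was 0.62 (SE 0.13) and Derl2, a Derlin, 0.60 (SE 0.11) above DMSO. In astrocytes given T/S/Z, Ube2g2, a ubiquitin-conjugating enzyme, rose by 0.60 (SE 0.07), the only one of 33 called against 15.4% of all genes.

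**Figure D5:**
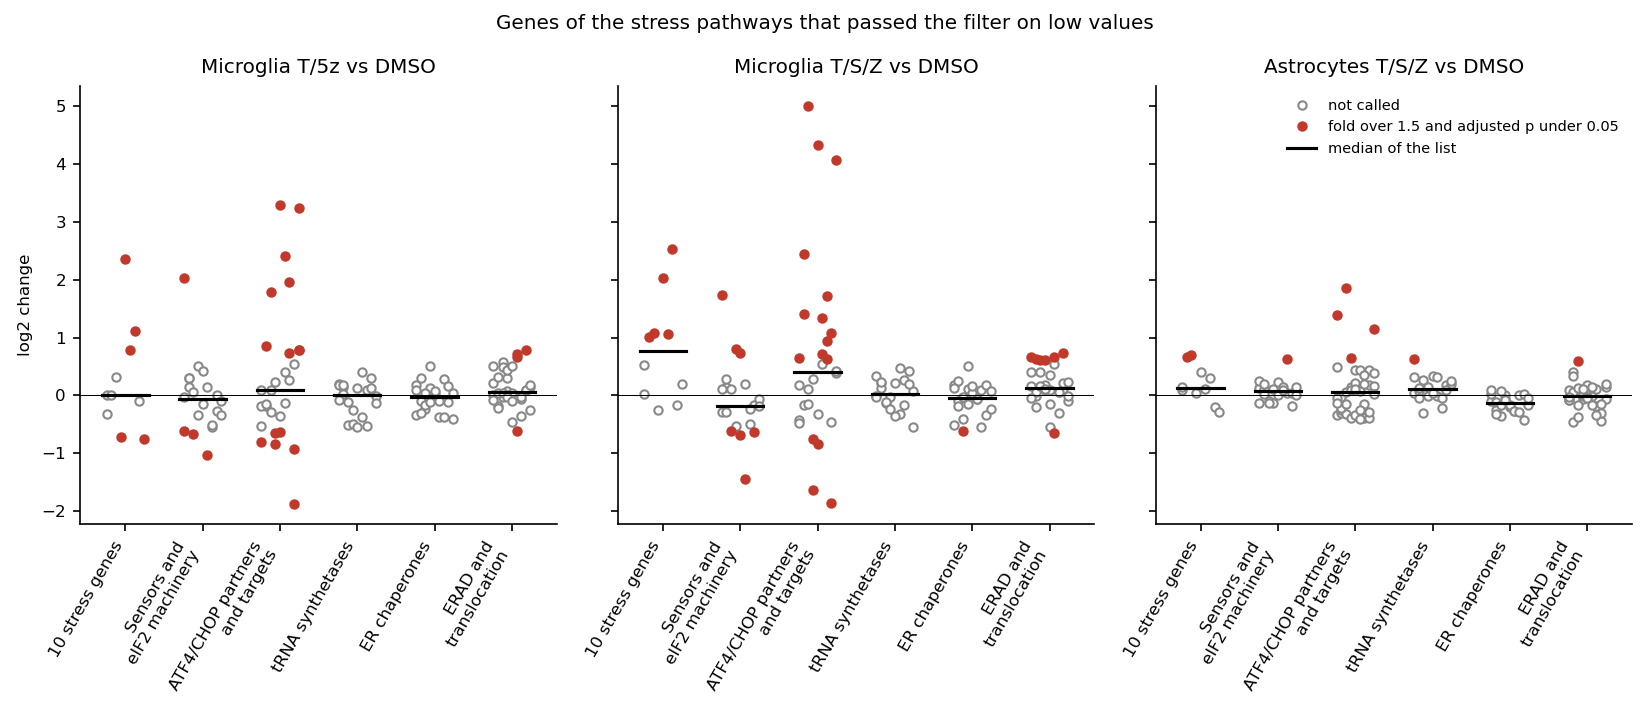
Log2 changes of the pathway genes that passed the filter on low values, in 3 comparisons of a stimulus with DMSO, 1 column of points per list. Filled points passed the fold and p thresholds and bars are list medians. The chaperone and tRNA synthetase columns have medians from -0.14 to 0.11 in the 3 panels, and the partners and targets of ATF4 and CHOP reach from -1.88 to 5.00 in microglia.

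For the members with the largest differences from DMSO, genes with the most similar pattern were looked up by the root mean square distance between differences of group means from DMSO. Over the 5 other microglial treatments these were Ikbke (distance 0.147 on the log2 scale), Orai2 (0.149) and Etv3 (0.245) for Herpud1, and Samsn1 (0.163), Ell2 (0.172) and Zswim4 (0.199) for Ppp1r15a. Over the 3 other astrocyte treatments they were Npm3 (0.029), Camkk2 (0.034) and Peak1 (0.038) for Atf4, and Timm10 (0.010), Etv6 (0.016) and Arhgef40 (0.026) for Chac1. All of these distances use the same libraries for both genes and were not tested.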

How the data were processed

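Reads were processed by the authors with OmicSoft Array Studio (version 10.1.1.3), who deposited log2 values of FPKM with 1 added, after scaling to a common 75th percentile. In the deposited values this percentile was 4.734 to 4.736 in astrocyte libraries and 4.114 to 4.159 in microglial libraries, so the latter do not share it exactly. The aligner and read filters are not given in the sources used here. In the microglial table, mean values of each gene in replicates 1 to 3 equalled those of replicate 4 within 6.67e-05, an adjustment the methods do not describe. It leaves up to 1438 negative values per library and forces values of a replicate that are high in one treatment to be low in others, so SDs and block fits of that table carry it. The largest such difference in the astrocyte table was 5.16. The tables hold no total counts. Whole multiples were fitted to the lowest 400 values above 0, taking the smallest step as 1 unit. Totals were searched only within a range set beforehand, so one outside it could not be found. The best fit was at about 21.3 to 22.5 M counted units for astrocytes and, for replicate 4 of microglia, 17.8 to 24.7 M. Since the values were scaled, these are scaled totals and not the depth of a library. Between 66.8% and 89.8% of the fitted values lay within 0.1 of a whole multiple, and whether a unit is a read or a pair was not settled. For replicates 1 to 3 of microglia no such total was sought, and their depth is unknown. On this basis, Chac1 rested on 27 to 132 units in replicate 4 of microglia and 69 to 251 in astrocytes.

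Genes entered a test when 4 microglial or 3 astrocyte libraries or more reached a log2 value of 1. Groups were compared with limma 3.58.1 (R 4.3.3; lmFit, eBayes with trend), 2-sided, on the libraries compared, blocked by replicate number, since the study's own test was paired. Deviations of same-numbered libraries correlated at -0.14 to 0.41 in astrocytes, so pairing by number was not shown there. In microglia the adjustment of replicate means itself makes these correlations negative on average (-0.46 to 0.26), so they cannot tell whether the numbers pair the libraries. No count test was made. The deposited annotation marks Ddit3, Herpud1, Sesn2 and Ppp1r15a as confounded, a mark it does not define. Against GENCODE M21, Ddit3 shares exon bases with Mars and Gm4189, and Ppp1r15a shares 12 with Tulp2, all on the opposite strand; Herpud1 and Sesn2 share none. Astrocyte libraries were strand-specific. Group names follow the labels, which spell the astrocyte vehicle DSMO. The 10 members, the 5 pathway lists and the comparisons were chosen with earlier results of these data known. All 10 members are named; from each list the 2 largest called rises and falls are named in the comparisons described for it, and for 2 members per table the 3 most similar genes. Alternatives were another normalization, centring, 5 in place of 1 before the log, other filters, no block, ordinary variances, all groups in 1 fit, other thresholds, and leaving out each replicate number.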

Additional observations from a re-analysis of the deposited data

Results flagged for a closer look

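In 60 groups of 4 microglial libraries (10 genes, 6 treatments), 5 held a library whose gap to its nearest neighbour passed Dixon's 95% critical value. For independent values chance gives about 1 in 20. The adjustment of replicate means ties the values of a replicate across treatments, so these groups are not independent and that rate is only a guide. These were the 8.11 of Atf4 in replicate 4 of T/S/Z, the highest there, and the lowest values of Ddit3 (6.20) and Chac1 (0.66) in replicate 3 of DMSO, of Hspa5 (7.48) in replicate 4 of DMSO and of Trib3 (3.50) in replicate 1 of T/5z/N. Groups of 3 astrocyte libraries were not examined in this way.

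By limma's test of the difference itself, Nec-1s acted differently after T/S/Z than after T/5z on Atf4 (-0.89), Ddit3 (-0.73), Trib3 (-0.73) and Ppp1r15a (-0.90), with the same sign in 4 of 4 replicate numbers each.

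Some changes had one sign in every replicate number of microglia and the opposite sign in every one of astrocytes. The difference was not tested, since the tables were normalized separately. With T/S/Z against DMSO, Trib3 was at 0.20 in microglia and -0.28 in astrocytes. On adding Nec-1s to T/S/Z, Hspa5 was at -0.52 and 0.21 and Xbp1 at -0.26 and 0.08. With T/S/Z/N against DMSO, Trib3 was at 0.91 and -0.04, Xbp1 at -0.24 and 0.22, and Ppp1r15a at 1.26 and -0.23. Of these, the microglial values of Trib3 and Ppp1r15a with T/S/Z/N against DMSO passed the fold and p thresholds, and none of the astrocyte values did.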

How the results depend on the processing

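Over the 14 comparisons, 37 changes of members were called, and 0 reversed under any alternative. Of the 37, 35 kept their call after quantile normalization, 36 after centring on the median, 22 with 5 added before the log, 37 without the filter, 31 of 31 still tested when the mean log2 value had to reach 3, 36 without the replicate block, 34 with ordinary variances, 37 with all groups in 1 fit, 37 at an unadjusted p and 15 at a fold over 2. Leaving out replicate 1, 2, 3 or 4 kept 36, 36, 35 and 34 (of 35) calls. With a fold over 2, the members called numbered 2 in place of 5 for T/5z against DMSO, 1 of 4 for T/5z/N against T/5z, 1 of 3 for T/S/Z/N against T/S/Z, 1 of 5 for T/5z/N against DMSO, 3 of 5 for T/S/Z/N against DMSO, 2 of 4 for T/S/Z against T/5z, 0 of 2 for astrocyte T/S/Z against DMSO and 0 of 4 for the difference between Nec-1s effects, as a stricter threshold gives. With 5 added before the log, which shrinks changes of low genes, they numbered 2 for T/5z/N against T/5z, 1 for T/S/Z/N against T/S/Z, 1 for T/5z/N against DMSO, 2 for T/S/Z against T/5z and 1 for astrocyte T/S/Z against DMSO. That last count was also 1 without the replicate block, which changed no other call, 1 when the mean log2 value had to reach 3, 0 with ordinary variances and 1 to 2 when each replicate was left out. For T/S/Z/N against T/S/Z in astrocytes, leaving out each replicate gave 0 to 1, with Ppp1r15a called without replicate 3. Low counts limit Chac1 most, and Trib3 in astrocytes, where by the estimate above 45 to 121 counted units lay behind a value.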
